A study of Danio rerio with 6 samples.

Results

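Fibroblast growth factor (FGF) signalling was followed through 10 zebrafish genes: the ligand genes fgf3, fgf8a and fgf24, the receptor genes fgfr1a and fgfr2, the ETS transcription factor genes etv4 and etv5b, the sprouty genes spry2 and spry4, and the phosphatase gene dusp6. The genes were chosen by name, as ligands, receptors and readout genes of the pathway. A probe set belonged to the group where the array annotation gave it exactly 1 of these symbols. All 10 genes were found, on 14 of the 15502 probe sets tested, while the whole array named 8793 genes. Genes with several probe sets were spry2 with 3, and fgfr2 and dusp6 with 2 each.

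RNA came from the regenerating caudal fin of AB strain larvae, amputated at 2 days post fertilization and collected 1 day after amputation. Exposed larvae swam in 1 uM of beclomethasone, which is a synthetic glucocorticoid. Controls were called vehicle controls with DMSO in the protocol of the exposed samples, but the protocol given for the controls themselves is that of a time course of regeneration without a vehicle, and no batch is labelled, so the exposure and any other difference between the groups cannot be told apart. Each group had 3 pools of 150 fins on 1 Affymetrix array each, with no genetic alteration named. Whether pools came from separate clutches is not stated. The p-values therefore weigh the group difference against the spread between these pools, moderated over all probe sets, and may not cover the spread between clutches. The question put to these genes is whether their transcripts differ when regeneration starts under a glucocorticoid.

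FGF ligands are secreted proteins that bind heparan sulfate and receptor tyrosine kinases on the cell surface. The receptors act through Ras and the kinase ERK, and the ETS factors etv4 and etv5b are switched on in response. Sprouty proteins and the ERK phosphatase dusp6 are induced by the same signal and dampen it, so their transcripts are widely used as readouts of pathway activity. In the zebrafish fin, FGF signalling is known to be needed for the blastema, the mass of dividing cells from which the lost tissue regrows.

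The deposited values are ratios, and most probe sets were divided by their own median of the 6 values. They compare pools within a probe set and give no expression level. Whether a gene, or the fin tissue by its markers, was detected at all could therefore not be checked. The array medians lay between 0.955 and 0.998. Medians below 1, which mark probe sets whose divisor is not known, were found for 4 of the 14 FGF probe sets (fgf3, fgfr1a and 2 of spry2) and for 19% of all. In pooled tissue, fewer cells of a type and less RNA per cell cannot be told apart.

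No FGF ligand, receptor or readout gene passed the test between exposed and control fins. With limma across all probe sets, 0 of the 14 had an adjusted p under 0.05, where 6.12% of all probe sets had (2.88% higher and 3.24% lower in exposed fins). An unadjusted p under 0.05 was found for 0 of the 14 and for 21% of all, but for some of the 14 in alternative fits given at the end. Higher values in exposed fins were found for 7 probe sets and lower values for 7, with a median log2 difference of -0.0075 against 0.029 for all probe sets. The sign of that median was not settled: it was -0.074 with quantile normalization and ran from -0.051 without exposed pool 3 to 0.081 without control pool 1. The 95% interval of the difference stayed within 2-fold in either direction for 12 of the 14, the exceptions being fgf8a and fgf24, and within 1.5-fold for 7. The 12 include all 4 probe sets with medians below 1, and fgf3, fgfr1a and the first of spry2 are among the 7. Signal over background is unknown, so a narrow interval need not mean a steady transcript. The smallest adjusted p was 0.291, that of fgf8a.

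**Figure D1:**
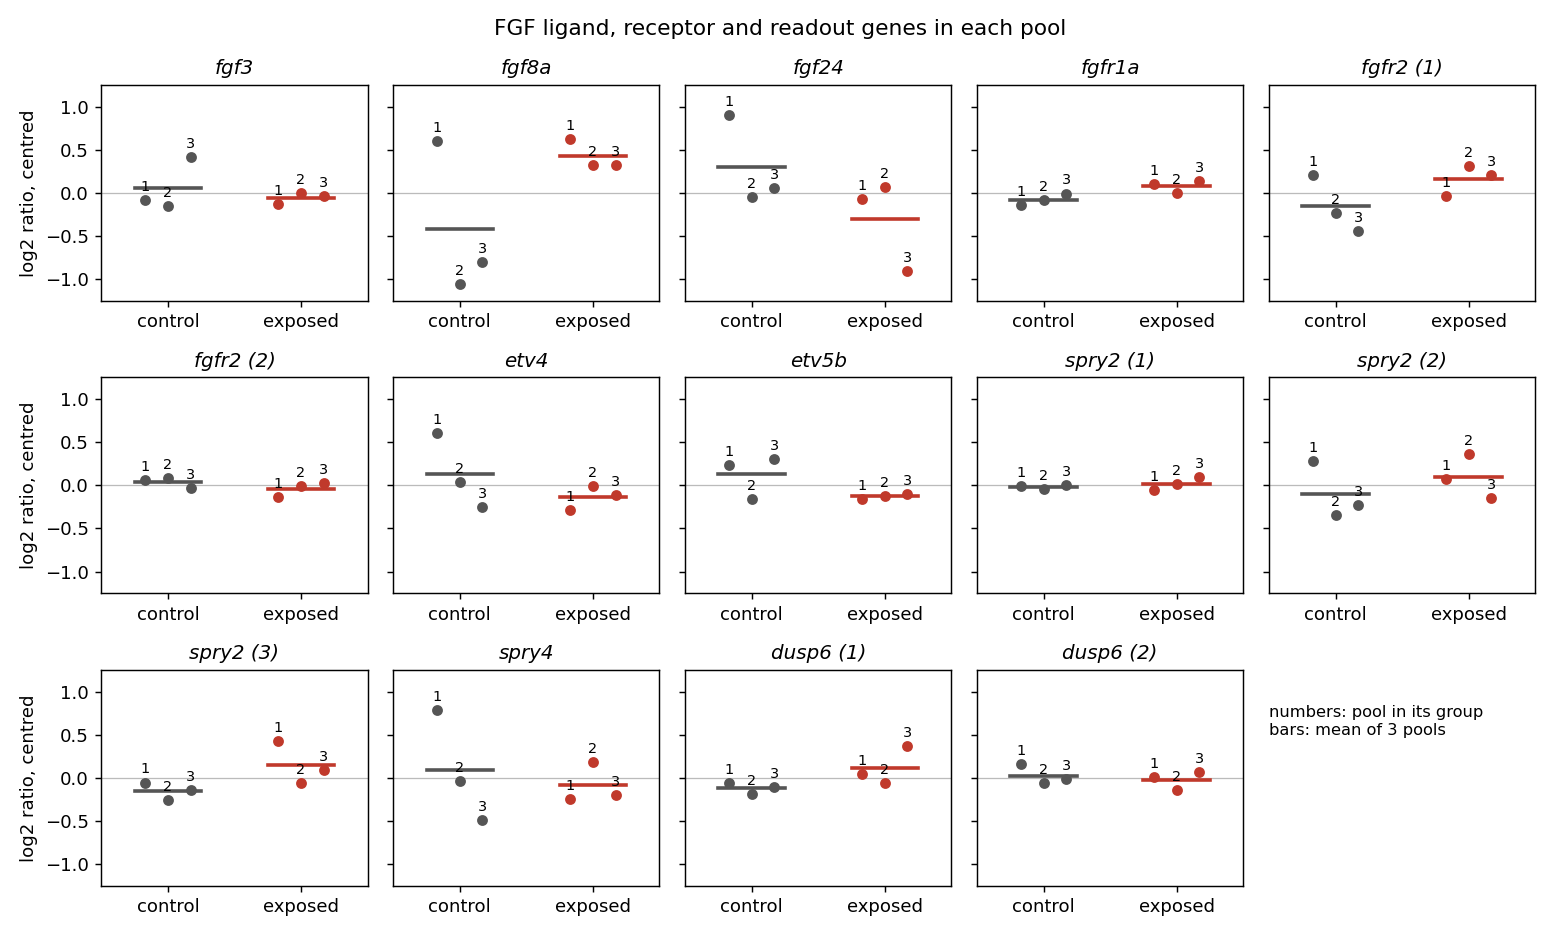
Log2 ratio of each FGF probe set in each pool, centred on its mean over the 6 arrays (y axis), for control and exposed pools (x axis); points are pools, numbered within their group, and bars are means of 3 pools. Control pool 1 lies far above control pools 2 and 3 for fgf8a, fgf24, etv4 and spry4, and the exposed and control pools overlap in every panel except fgfr1a.

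Among the ligands, fgf8a had the widest gap between group means. Fgf8a encodes a ligand best known for patterning the midbrain and hindbrain. The ratios of fgf8a were 1.24, 0.998 and 1.00 for exposed pools 1 to 3, against 1.21, 0.384 and 0.459 for control pools 1 to 3. Control pools 2 and 3 lay below every exposed pool, and control pool 1 lay among the exposed pools. The log2 difference of fgf8a was 0.84 ± 0.40 (SE, n = 3 pools per group; 1.80-fold, 95% interval 0.943 to 3.42; limma adjusted p = 0.291). The interval thus held no difference as well as a rise of more than 3-fold.

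Fgf8a was the gene whose result turned on a single array. Without control pool 1, fgf8a was higher in exposed fins by 1.35 ± 0.15 (SE; limma adjusted p = 0.00243), with 2 control pools left and 7.95% of all probe sets called. Leaving out any other array gave 0.53 (without control pool 2) to 0.90, with no call, in fits that called 2.68%, 2.45% and 2.37% of all probe sets without exposed pools 1, 2 and 3 and 3.99% and 2.66% without control pools 2 and 3. Control pool 1 is 1 of 3 replicates with no label that sets it apart, so its part in the result was not tested.

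Fgf24 encodes a ligand of the Fgf8 subfamily that is known in zebrafish for its role in the pectoral fin bud. Its ratios were 0.950, 1.04 and 0.532 after exposure, against 1.86, 0.967 and 1.03 in controls. A single pool stood apart in each group, exposed pool 3 below and control pool 1 above, and the other 4 pools lay close together. The log2 difference of fgf24 was -0.61 ± 0.33 (0.656-fold, 95% interval 0.386 to 1.12; limma adjusted p = 0.365). Dropping exposed pool 3 gave -0.31, as did dropping control pool 1, while dropping each of the others gave -0.79 to -0.72.

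Fgf3 encodes a ligand that works beside Fgf8 in the embryonic hindbrain and ear. Ratios of fgf3 were 0.569, 0.623 and 0.608 in the exposed and 0.588, 0.563 and 0.830 in the control pools. Control pool 3 was high and the other 5 pools differed little. The log2 difference of fgf3 was -0.12 ± 0.16 (limma adjusted p = 0.778), and 0.06 without control pool 3.

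The receptor genes showed small differences. Fgfr1a encodes a receptor known from the blastema of the regenerating fin. Its ratios were 0.701, 0.657 and 0.723 in exposed pools and 0.593, 0.618 and 0.652 in control pools. Fgfr1a was the single probe set of the 14 whose groups did not overlap, where 26.3% of all probe sets showed this. The gap was narrow, with a log2 difference of 0.16 ± 0.10 (1.12-fold, 95% interval 0.954 to 1.31; limma adjusted p = 0.433).

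The probe sets of fgfr2, which encodes a receptor prominent in epithelia, did not give the same sign. The first probe set had ratios of 0.917, 1.16 and 1.08 in exposed pools and 1.09, 0.802 and 0.690 in control pools. The second had 0.903, 0.988 and 1.01 in exposed pools and 1.04, 1.05 and 0.974 in control pools. The lowest of the 6 were control pools 2 and 3 in the first and exposed pool 1 in the second. Their log2 differences were 0.31 ± 0.18 (adjusted p = 0.409) and -0.08 ± 0.10 (adjusted p = 0.751) in limma, and the mean of both probe sets gave 0.12 ± 0.13. The first ran from 0.17 without control pool 3 to 0.50 without control pool 1 (limma adjusted p = 0.0916), and the second from -0.11 to -0.031 without exposed pool 1.

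The ETS factor genes etv4 and etv5b, which respond directly to FGF signalling, had values slightly lower in exposed fins. The related etv5a, of the wider list described further on, did not give the same sign on its probe sets. Its log2 differences were 0.25 ± 0.10 (adjusted p = 0.222) and -0.05 ± 0.13 (adjusted p = 0.877) in limma. Ratios of etv4 were 0.856, 1.04 and 0.964 in exposed and 1.58, 1.07 and 0.876 in control pools. Control pool 1 was the highest, and control pools 2 and 3 lay within or just above the exposed range. The log2 difference of etv4 was -0.26 ± 0.21 (0.833-fold, 95% interval 0.589 to 1.18; limma adjusted p = 0.59), and ran from -0.45 without control pool 3 to -0.026 without control pool 1.

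Etv5b was the steadiest readout among the exposed pools, with ratios of 0.967, 0.993 and 1.01. Its control ratios were 1.27, 0.966 and 1.34. Control pools 1 and 3 lay above all exposed pools and control pool 2 just below them. The log2 difference of etv5b was -0.25 ± 0.14 (0.839-fold, 95% interval 0.67 to 1.05; limma adjusted p = 0.376), and ran from -0.40 without control pool 2 to -0.16 without control pool 3.

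The sprouty genes encode intracellular inhibitors of receptor signalling to ERK. Ratios of spry4 were 0.917, 1.23 and 0.945 in exposed pools and 1.86, 1.06 and 0.774 in control pools. The control pools enclosed the exposed ones, with control pool 1 the highest and control pool 3 the lowest of the 6. The log2 difference of spry4 was -0.17 ± 0.30 (0.887-fold, 95% interval 0.542 to 1.45; limma adjusted p = 0.829). Its sign was set by 1 array, since dropping control pool 1 gave 0.18 ± 0.19 and dropping each of the others gave -0.46 to -0.10.

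Spry2 was measured by 3 probe sets, and exposed values were on average higher in each. The first hardly varied, with all 6 ratios between 0.310 and 0.345 and a log2 difference of 0.03 ± 0.09. The second had ratios of 1.08, 1.32 and 0.921 in exposed and 1.24, 0.804 and 0.875 in control pools. The third had 1.17, 0.836 and 0.927 in exposed and 0.839, 0.730 and 0.789 in control pools. In both, control pools 2 and 3 lay below all exposed pools, and control pool 1 overlapped them. The log2 differences were 0.19 ± 0.20 (adjusted p = 0.691) and 0.30 ± 0.14 (adjusted p = 0.297) in limma, and the mean of the 3 probe sets gave 0.18 ± 0.11 (adjusted p = 0.39 over genes). With 1 array left out the second ran from 0.06 without exposed pool 2 to 0.38 without control pool 1, and the third from 0.17 without exposed pool 1 to 0.41.

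Dusp6 encodes a phosphatase that switches off ERK. Its first probe set had ratios of 1.08, 0.999 and 1.34 in exposed and 1.00, 0.914 and 0.967 in control pools. Exposed pool 3 was the highest, and the groups met at exposed pool 2 and control pool 1. Its second probe set had 1.01, 0.908 and 1.05 in exposed and 1.12, 0.960 and 0.992 in control pools. These ranges overlapped, with exposed pool 2 the lowest and control pool 1 the highest of the 6. The log2 differences were 0.24 ± 0.13 (1.18-fold, 95% interval 0.95 to 1.46; adjusted p = 0.39) and -0.05 ± 0.11 (0.968-fold, 95% interval 0.808 to 1.16; adjusted p = 0.873) in limma. The first was 0.11 without exposed pool 3, and the second changed sign with 1 array left out. Mean differences of the readout genes thus did not share a sign. Etv4, etv5b and spry4 had lower and spry2 higher mean values in exposed fins, and dusp6 differed between its probe sets. None of these differences passed the test and some signs changed with 1 array left out, so neither a shared nor a split direction was shown.

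**Figure D2:**
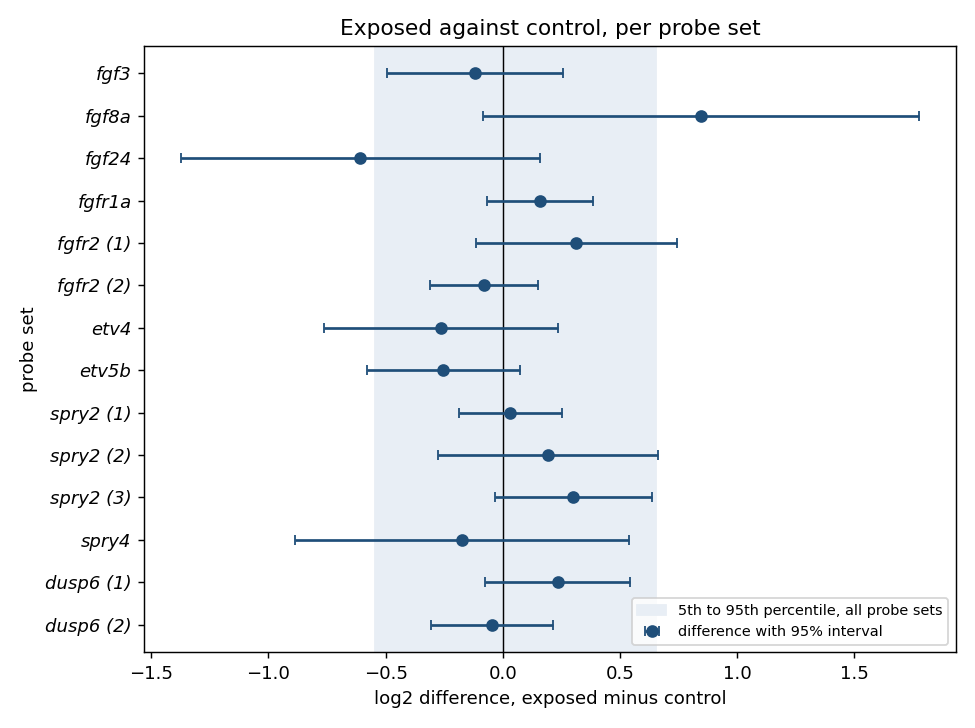
Log2 difference, exposed minus control, for each FGF probe set (points) with its 95% interval (bars, limma, 3 pools per group); the shaded band holds the differences from the 5th to the 95th percentile of all 15502 probe sets, -0.55 to 0.66. Every interval includes 0, and those of fgf8a and fgf24 are the widest.

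The median SD of the log2 ratio was 0.28 over control and 0.16 over exposed pools for the 14 probe sets, against 0.15 and 0.14 for all probe sets. The control SD was the larger for 8 of the 14, near the share of 50.8% over all. The widest control SDs were those of fgf8a (0.89), spry4 (0.64), fgf24 (0.52) and etv4 (0.43), each with control pool 1 the highest control, while fgf24 spread as widely over the exposed pools (0.52). A comparison of control pool 1 with the mean of control pools 2 and 3, chosen after the values had been seen and given with no test, was above 0 for 12 of the 14 FGF probe sets and for 50.3% of all. It was above 1.5-fold for 4 of the 14 and for 4.73% of all: fgf8a (2.88-fold), spry4 (2.06-fold), fgf24 (1.86-fold) and etv4 (1.64-fold). No FGF probe set was that far above the mean of the other controls in control pool 2 or 3, where 2.59% and 2.23% of all probe sets were. Control pool 1 is part of the mean for those 2 pools, so their counts do not show that it stands apart.

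In the wider FGF pathway list, described further on, the excess of control pool 1 was nearer that of the whole array. It was above 0 for 52 of 95 probe sets (54.7%, against 50.3% of all) and above 1.5-fold for 8 (8.42%, against 4.73% of all). By role, those above 0 were 10 of 13 for feedback inhibitors, 14 of 22 for adaptors and kinases, 10 of 19 for heparan sulfate genes, 3 of 6 for receptors and binding proteins, 13 of 29 for transcription factors and targets and 2 of 6 for other ligands. The 8 above 1.5-fold were 1 probe set each of the kinase genes rps6ka3a (2.42-fold) and mapk3 (1.52-fold), the transcription factor genes fosab (1.92-fold) and myca (1.53-fold), fgfbp2a of the secreted FGF-binding proteins (1.71-fold), the heparan sulfate sulfotransferase gene hs6st1a (1.63-fold), the ligand gene fgf4 (1.60-fold) and the sprouty-related inhibitor gene spred1 (1.60-fold). Others of the 95 lay more than 1.5-fold below the mean of the other controls, as did 4.46% of all probe sets. These were the AP-1 gene junbb (0.547-fold), the phosphatase genes dusp2 (0.56-fold) and dusp5 (0.626-fold), lef1 (0.662-fold) and fgf13a (0.663-fold). Markers of some tissues also differed between the control pools. Median log2 ratios in control pools 1 to 3 were 0.28, -0.28 and -0.38 for the 9 fin fold mesenchyme genes measured, -1.97, -0.02 and -1.24 for 8 skeletal muscle genes, and -0.11, 0.46 and 0.63 for 7 leukocyte genes. For 6 neural genes they were -0.64, -0.10 and -0.26. Control medians lay closer together for 8 epidermis genes (0.06, -0.03 and 0.08) and 3 notochord genes (-0.01, 0.20 and 0.14). The same held for 7 proliferation genes (0.27, 0.16 and 0.26). Among the control pools, control pool 1 was the highest for the mesenchyme medians, as for fgf8a, and narrowly for the proliferation medians. The lowest was control pool 3 for the mesenchyme but control pool 2 for fgf8a. In exposed pools 1 to 3 the mesenchyme medians were -0.13, 0.02 and 0.04, all below control pool 1. Of the 14 FGF probe sets, 4 were likewise highest in control pool 1, as were 18.5% of all probe sets. These were fgf24, etv4, spry4 and the second of dusp6, while fgf8a was highest in exposed pool 1. The mean profile of the readout genes, given below, was 0.24, -0.13 and -0.11 in control pools 1 to 3. In the exposed pools it was -0.023 to 0.02. The part of the mesenchyme in these FGF values was not tested.

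**Figure D3:**
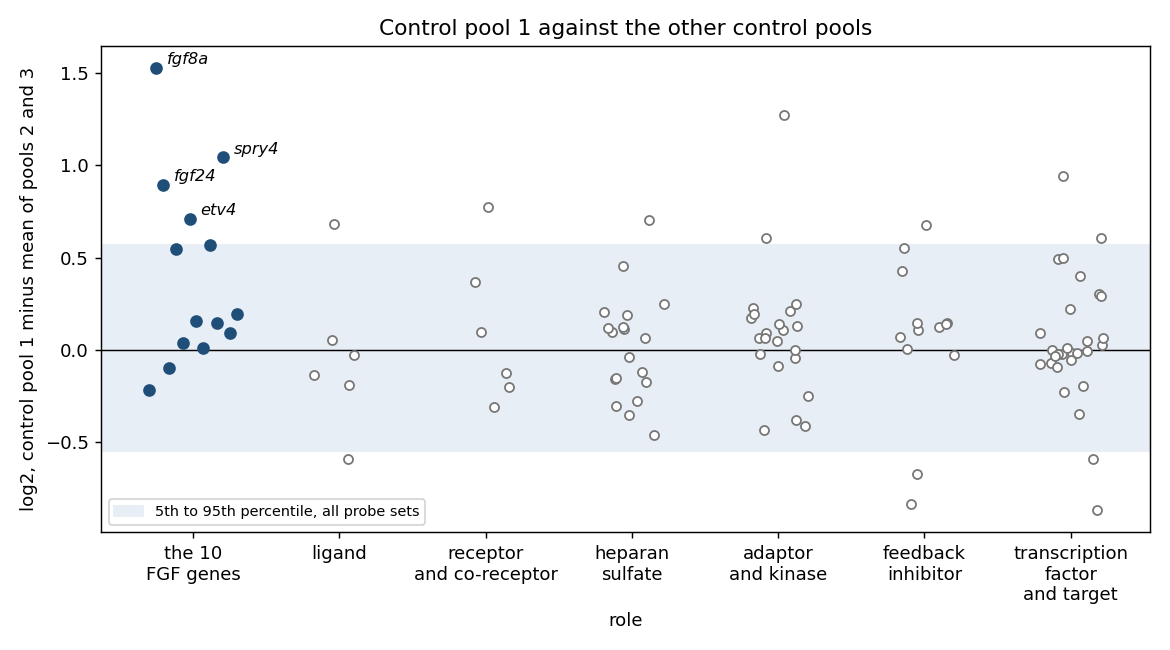
Log2 ratio of control pool 1 minus the mean of control pools 2 and 3 (y axis) for the probe sets of the 10 FGF genes and, in open circles, of the other FGF pathway genes by role (x axis); the shaded band holds the 5th to the 95th percentile of all probe sets. Fgf8a, spry4, fgf24 and etv4 lie above the band and the second spry2 probe set at its edge. Above it are also 8 of the 95 open circles, with each role among them.

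**Figure D4:**
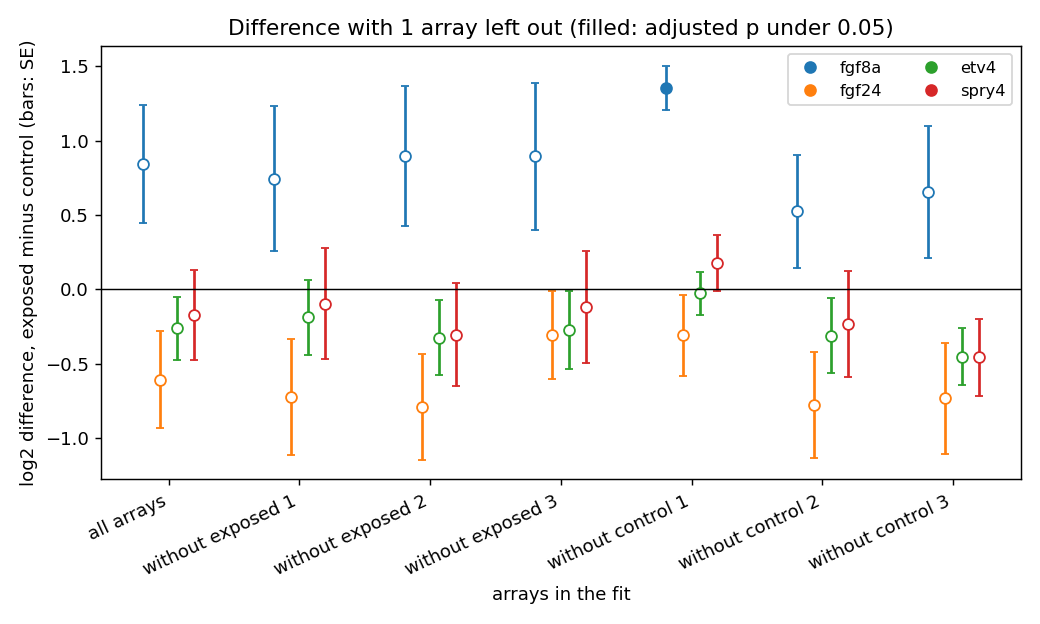
Log2 difference, exposed minus control, with SE (y axis) for fgf8a, fgf24, etv4 and spry4 with all 6 arrays and with each array left out in turn (x axis); filled points have a limma adjusted p under 0.05. The single filled point is fgf8a without control pool 1, at 1.35.

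A mean profile of the 5 readout genes was built from their 8 probe sets. On the log2 scale and centred on 0 it was -0.023, 0.02 and 0.008 for exposed pools 1 to 3, against 0.24, -0.13 and -0.11 for control pools 1 to 3, so that it was flat over the exposed pools and high in control pool 1. The single probe sets did not all share this shape. Control pool 1 exceeded the mean of the other controls by 1.04 for spry4, 0.71 for etv4 and 0.57 for the second spry2 probe set. For the other readout probe sets the excess was 0.0088 to 0.196. The probe sets closest to the mean profile among 10781 with 1 gene name were those of rpl5b, a ribosomal protein gene, tcf7l2, which encodes a nuclear partner of beta-catenin, septin9a, chic2 and patl1. Their root mean square difference from the profile over the 6 arrays was 0.0261 to 0.0387 on the log2 scale, against a median of 0.205 for all probe sets. They were picked for the smallest differences, so lying below that median follows from the choice and shows no shared regulation. The profile itself spanned only 0.374 from its lowest to its highest pool.

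The wider FGF pathway list held 152 further genes, of which 72 were measured on 95 probe sets. Of these probe sets, 6 rose and 2 fell, each of a different gene, which is 8.42% of them against 6.12% of all probe sets, and the list's median log2 difference was 0.028, beside 0.029 for all probe sets. Of the 27 other ligand genes listed, only 6 were measured, on 6 probe sets. Those of fgf2, fgf4, fgf6a and fgf18a had medians below 1, so their divisor is not known. None of the 6 ligand probe sets passed in limma, with 1 at an unadjusted p under 0.05. That was fgf10a, a mesenchymal ligand gene of fin and limb buds, with a log2 difference of -0.30 ± 0.11 (adjusted p = 0.166), and the next smallest p was that of fgf13a, of the intracellular FGF-like family (0.33 ± 0.27, adjusted p = 0.596).

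Among receptors, co-receptors and FGF-binding proteins, 1 of 6 probe sets fell. Fgfbp1a, whose mammalian counterpart encodes a secreted carrier that releases FGFs from the matrix, had ratios of 0.706, 0.551 and 0.525 in exposed pools and 1.29, 1.47 and 1.36 in control pools. Every exposed pool lay far below every control pool. Fgfbp1a fell by 1.22 ± 0.14 on the log2 scale (0.43-fold; limma adjusted p = 0.00508), and the call held without any 1 array. The receptor gene fgfr4 had a log2 difference of 0.43 ± 0.14 (adjusted p = 0.126; 0.55 and adjusted p = 0.0399 without control pool 1 in limma), and fgfr3 one of 0.17 ± 0.12 (adjusted p = 0.513).

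Among feedback inhibitors, 1 of 13 probe sets rose. Dusp1 encodes a phosphatase of MAP kinases that in mammals is a known target of the glucocorticoid receptor. Its ratios were 1.58, 1.65 and 1.66 in exposed pools and 0.424, 0.359 and 0.233 in control pools. The exposed pools were nearly equal and all lay well above the controls. Dusp1 rose by 2.31 ± 0.21 (4.96-fold; limma adjusted p = 0.00212), and the call held without any 1 array. None of the other 12 probe sets of feedback inhibitors passed in limma. The membrane inhibitor gene il17rd had -0.25 ± 0.14 (adjusted p = 0.393) and the 4 probe sets of spred1 lay between -0.22 and 0.10, both chosen for mention after their values were seen. Rasa1a, which encodes a Ras inactivator, had -0.27 ± 0.09 (adjusted p = 0.159).

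Of 19 heparan sulfate probe sets, 2 rose. Sulf1 encodes an extracellular sulfatase that trims heparan sulfate, and its ratios were 1.18, 1.23 and 1.21 in exposed and 0.752, 0.820 and 0.725 in control pools, with no overlap. That probe set rose by 0.66 ± 0.10 (limma adjusted p = 0.0118; 0.64 and adjusted p = 0.0577 without exposed pool 2), while a second sulf1 probe set had 0.34 ± 0.16 (adjusted p = 0.298). Ext1c, of the enzymes that build heparan sulfate chains, rose by 0.57 ± 0.12 (limma adjusted p = 0.0412). Its difference stayed between 0.46 and 0.65 with 1 array left out, but was past the threshold only without control pool 1 (adjusted p 0.0465 there and 0.0553 to 0.119 otherwise), and arrays centred on their medians gave 0.55 (adjusted p = 0.0528).

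Of 22 adaptor and kinase probe sets, 1 rose. The Ras gene hrasb had ratios of 1.66, 1.20 and 1.21 in exposed and 0.801, 0.772 and 0.758 in control pools, with exposed pool 1 the highest. This probe set rose by 0.79 ± 0.14 (limma adjusted p = 0.0252; with 1 array left out 0.63 to 0.87, past the threshold except without exposed pools 2 and 3 and control pools 2 and 3, where adjusted p was 0.0534 to 0.0785), and the other hrasb probe set had 0.25 ± 0.11 (adjusted p = 0.27). The adaptor gene grb2b had -0.51 ± 0.14 (adjusted p = 0.0824) on the probe set of smaller p and -0.03 ± 0.10 on its other.

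Of 29 probe sets of transcription factors and targets, 2 rose and 1 fell. The hedgehog ligand gene shha rose by 0.77 ± 0.15 (limma adjusted p = 0.0271; with 1 array left out 0.66 to 0.89, past the threshold except without each of the exposed pools and control pool 3, where adjusted p was 0.0586 to 0.0951). The AP-1 gene fosab rose by 1.27 ± 0.24 on 1 of its 4 probe sets (limma adjusted p = 0.0272; with 1 array left out 1.1 to 1.5, past the threshold except without exposed pools 1 and 3 and control pools 2 and 3, where adjusted p was 0.069 to 0.103), while the others had 1.39, 1.14 and 0.34 with adjusted p of 0.0732 to 0.233. Sp8b, a factor of the fin and limb bud ectoderm, fell by 0.62 ± 0.11 on the log2 scale (limma adjusted p = 0.0226; with 1 array left out -0.68 to -0.56, past the threshold except without exposed pools 2 and 3 and control pool 3, where adjusted p was 0.0729 to 0.0851). Fosab and dusp1 respond to many signals besides FGF. Over the whole list the 6 rises became 3 on dropping any of exposed pools 1 and 2 and control pool 2, became 2 on dropping exposed pool 3 or control pool 3, and became 8 on dropping control pool 1. The 2 falls became 1 on dropping any of exposed pools 2 and 3 and control pool 3, and became 3 on dropping control pool 1. Without control pool 1 the added fall was the AP-1 gene junbb, at -0.60 ± 0.12 (limma adjusted p = 0.0272). With all arrays junbb had -0.31 ± 0.24 (limma adjusted p = 0.561). The added rises were fgfr4 and another fosab probe set, at 1.71 (limma adjusted p = 0.0192).

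**Figure D5:**
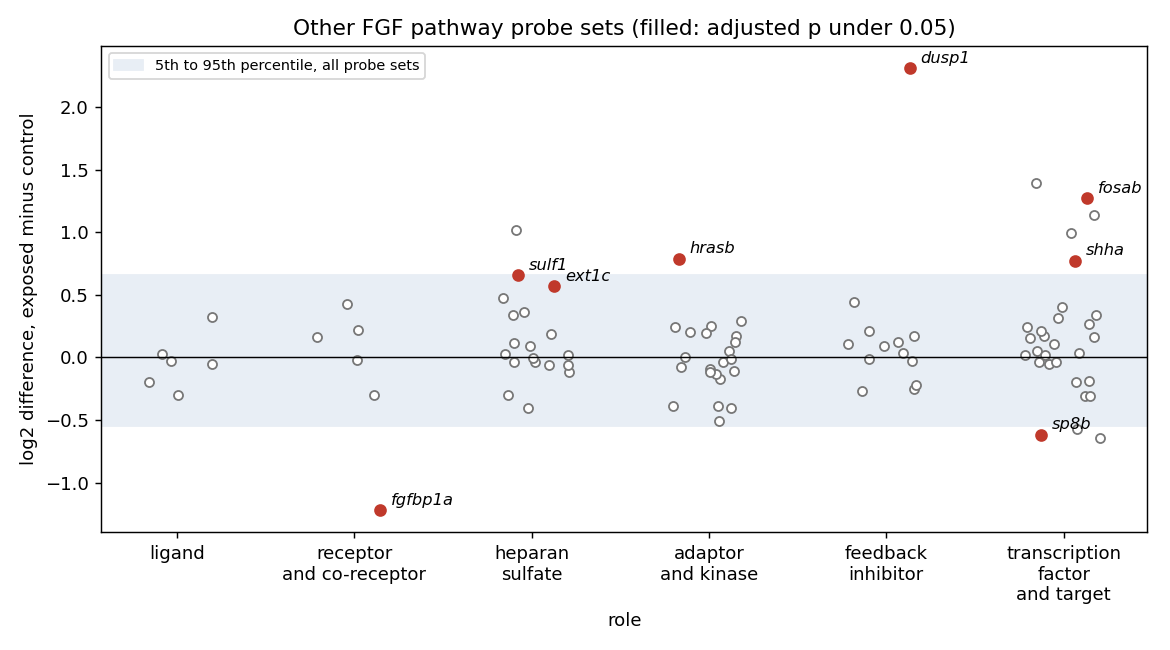
Log2 difference, exposed minus control (y axis), for the 95 probe sets of other FGF pathway genes by role (x axis); filled and named points have a limma adjusted p under 0.05, and the shaded band holds the 5th to the 95th percentile of all probe sets. The 8 named points are spread over 5 of the 6 roles, and the ligands, with only 6 of 27 listed genes measured, have none.

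Markers of other cell groups were read beside these values. Proliferation genes were called lower on 7 of 13 probe sets, and their median log2 ratios ran from -0.48 to -0.29 after exposure, against 0.16 to 0.27 in controls. Yolk and liver genes had medians of 1.21, 2.67 and -0.28 for exposed pools 1 to 3, against -0.59 to -0.25 for control pools. Basal and surface epidermis genes had 2 of 10 probe sets called lower, fin fold mesenchyme genes 0 of 13 in limma, and neural genes 2 of 9 called higher, beside 2.88% of all probe sets higher and 3.24% lower. Skeletal muscle genes had medians of 0.70, 0.023 and 0.18 for exposed pools 1 to 3, beside the control values given earlier, with 0 of 13 probe sets called in limma. Leukocyte genes had -0.15, -0.0088 and 0.026, with 1 of 12 called higher. With exposed pools 1 and 2, which had high yolk and liver ratios, left out together, 1 exposed array remained and 0.0258% of all probe sets were called, so calls in that fit carry no information on stability. The log2 differences there were 2.34 for dusp1, -1.38 for fgfbp1a, 0.66 for sulf1, 0.58 for ext1c, 0.64 for hrasb, 0.79 for shha, 1.39 for fosab, -0.70 for sp8b and 0.75 ± 0.71 for fgf8a. The part of these cell groups in the FGF values was not tested.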

How the data were processed

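Total RNA of 6 pools was labelled by a 2-cycle protocol, per the labels' protocols, and hybridised to Affymetrix zebrafish arrays. The authors' deposited values were used as linear ratios per probe set. The submitters' processing notes name GCRMA, a background correction and summary of probe intensities. The divisor was worked out from the file itself. Among 15617 probe sets, 12601 had a median ratio of 1 over the 6 arrays (to within 1e-06), while 3015 had a lower one. Signal over background is unknown, and the number of arrays limits the precision.

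Tests used log2 ratios with no pseudocount or filter, where the design had assumed log2 levels, and 115 control probe sets were left out. In the array annotation 10795 probe sets had 1 symbol, 135 had several and 4572 had none, and 1 symbol was updated through Entrez numbers. The test was limma 3.58.1 under R 4.3.3, with lmFit and two-sided eBayes, Benjamini-Hochberg adjustment over 15502 probe sets and a threshold of 0.05, and was checked on simulated data. Differences are exposed minus control. Same-numbered pools were not treated as pairs. The genes, lists and tests were chosen with earlier results of these data known. All probe sets of the 10 genes are named, and of the pathway list the called genes and the 2 genes of smallest p per role. Etv5a, fgfr3, il17rd, spred1 and junbb in the exposure comparison, and the genes named for control pool 1, were picked after their values were seen. Other ligand genes with medians below 1 were named for that reason. The alternatives tried were another scaling (quantile, or centring on array medians), a trended robust variance, weights per array, the replicate number as a block, each of the 6 arrays left out, a pseudocount of 1, no probe sets with medians below 1, gene means and a threshold of 0.1. Leaving out exposed pools 1 and 2 together was added after seeing the data.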

Additional observations from a re-analysis of the deposited data

How the results depend on the processing

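The count of 0 called among the 14 FGF probe sets was the same under all alternatives except without control pool 1, where 1 was called higher (range 0 to 1 over arrays left out). Unadjusted limma p under 0.05 appeared in some fits, listed here for those with more than 1 exposed array. With array weights these were fgf8a (0.0125), the first fgfr2 (0.0105) and the second spry2 probe set (0.0248). The replicate block gave fgf8a (0.0297) and the third spry2 probe set (0.0423), and quantile normalization the first (0.0488). Fgf8a and the first fgfr2 probe set had it without control pool 1, the third spry2 probe set without exposed pool 2, and etv5b without control pool 2. With exposed pools 1 and 2 left out together, fgf24 had a log2 difference of -1.21 and the first dusp6 probe set 0.48. With all arrays these were -0.61 and 0.24. Uncalled differences changed sign as follows. With quantile normalization the first spry2 probe set had -0.20, and with array weights spry4 had 0.11 and the second grb2b probe set 0.0115. With exposed pools 1 and 2 left out together, the second spry2 probe set had -0.0536, the second dusp6 probe set 0.0469 and fgf13a -0.0626. With 1 array left out the values ran from -0.22 to 0.0597 for fgf3, -0.0073 to 0.0687 for the first spry2 probe set, -0.46 to 0.18 for spry4, -0.094 to 0.0183 for the second dusp6 probe set and -0.0794 to 0.031 for the second grb2b probe set. The causes were not tested.

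In the pathway list, 6 higher and 2 lower became 12 and 6 with array weights, 10 and 6 at a threshold of 0.1, 0 and 0 without exposed pools 1 and 2 (1 exposed array left, so that lost calls say nothing of stability), and 2 to 8 higher and 1 to 3 lower with 1 array left out. Its median of 0.0283 was 0.0426 with array weights, 0.01 with a pseudocount of 1, 0.0092 by gene, 0.0746 without exposed pools 1 and 2, and 0.0053 to 0.0513 with 1 array left out. Over all probe sets, 446 higher and 502 lower became 1073 and 1104 with array weights, 828 and 825 at 0.1, 2 and 2 without exposed pools 1 and 2, and 176 to 565 and 180 to 668 with 1 array left out. Deviations of same-numbered pools from their group means correlated at -0.21, -0.04 and 0.11, so the numbers were not shown to pair the pools. The replicate block gave 200 higher and 236 lower over all and 4 and 1 in the pathway list, and called none of the 14, while ext1c, shha, hrasb and sp8b lost their calls. Signal over background is unknown, which limits what can be said of probe sets that hardly varied.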
